A study of Mus musculus with 8 samples.

Results

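Gene expression was compared between TGF-beta and Repsox in mouse cells carrying K36M, a histone H3 mutant in which methionine replaces lysine 36. The comparison used 4 of the 8 RNA-seq libraries of the series, all 26930 genes of the deposited count table, of which 15789 had enough counts to be tested. The cells were intermediates on day 8 of the reprogramming of mouse embryonic fibroblasts to pluripotency, driven by the OKSM factors (Oct4, Klf4, Sox2 and Myc) in a medium named AGi in the labels. The K36M cells had received 2.5 ng/ml recombinant TGF-beta1 (2 libraries) or 250 nM Repsox (2 libraries). The 4 remaining libraries were WT cells, marked H3 in the sample descriptions, under the same treatments, 2 each, and they served to test where the response of K36M cells differed. The OKSM factors were driven in all 4 groups, and no library without TGF-beta and Repsox was among those analysed, so a difference cannot be assigned to the ligand or to the inhibitor alone. Whether paired libraries stem from independent cultures, how the mutant histone was expressed, and whether the mutant cells were 1 clone is not stated in the labels, and p-values therefore measure a spread that may be technical. RNA of whole cultures was sequenced, so fewer cells of a type and less RNA per cell cannot be told apart.

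TGF-beta ligands bind a pair of receptor kinases, and the type I receptor, encoded by Tgfbr1, phosphorylates Smad2 and Smad3, which enter the nucleus with Smad4 and act on target genes. Repsox blocks the type I receptor. Activin and Nodal use related type I receptors and the same Smads. In fibroblasts the pathway maintains contractile and matrix genes, and fibroblasts must pass through a mesenchymal to epithelial transition early in reprogramming, which TGF-beta opposes. Methylation of lysine 36 of histone H3 is a mark of transcribed chromatin, and the K36M protein inhibits the enzymes that place it.

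Of the 15789 genes, 7626 (48.3%) were called: 3895 (24.7%) were higher and 3731 (23.6%) lower in K36M cells under TGF-beta than under Repsox, by edgeR's quasi-likelihood test at a Benjamini-Hochberg adjusted p below 0.05, the threshold for every call below. By at least 2-fold, 1696 (10.7%) were higher and 1302 (8.25%) lower. The median log2 fold change of all tested genes was 0.01. The lowest and highest TGF-beta and Repsox libraries did not overlap for 75.1% of the genes, with TGF-beta above for 37.8% and below for 37.2%. The 8 libraries held 10928302 to 15594217 counts, and the 2 libraries of a group lay together on the first 2 principal components, which carried 65.6% and 18.9% of the variance. Fibroblast and epithelial markers were read in all K36M libraries: Thy1, a surface marker of fibroblasts that is lost in reprogramming, stood at 37.9 and 36.7 CPM under TGF-beta, against 14.7 and 13.9 CPM under Repsox (CPM being counts scaled to a common library size). Epcam, an epithelial adhesion molecule, stood at 337 and 329 CPM under TGF-beta, against 213 and 200.4 CPM under Repsox. H3f3a and H3f3b, the genes of histone H3.3, were 1.54-fold and 1.20-fold higher under TGF-beta (adjusted p = 2.17e-06 and 0.00367; for H3f3b 0.112 without the first TGF-beta library), and a count per gene cannot separate mutant from normal transcripts.

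**Figure D1:**
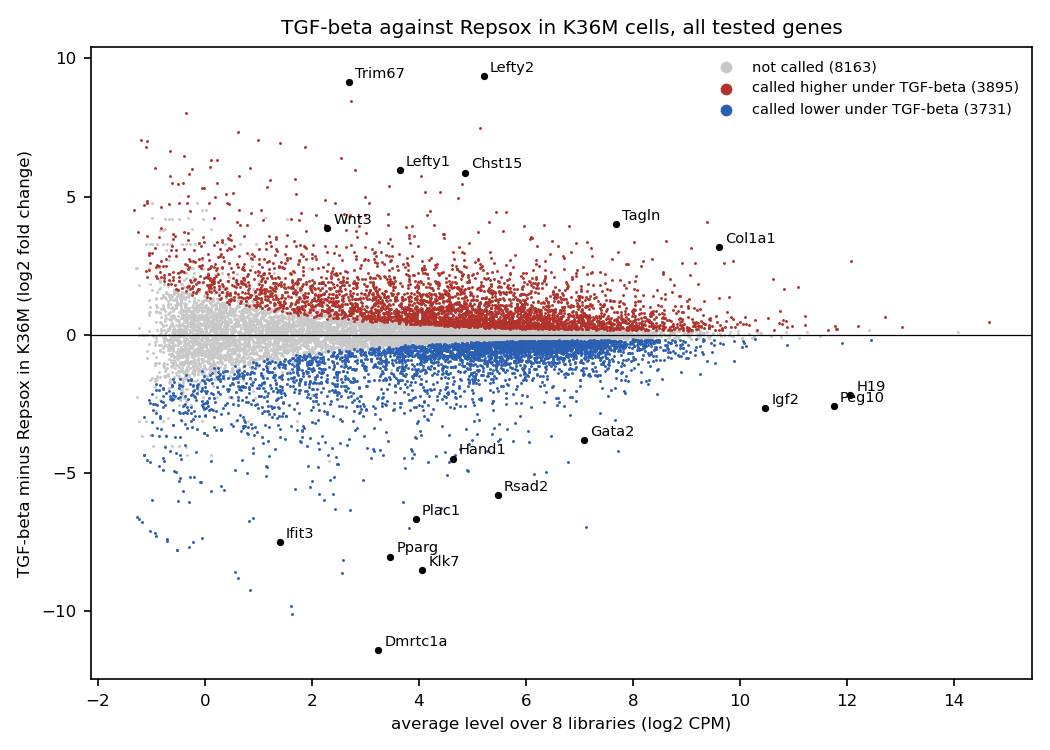
Log2 fold change of TGF-beta over Repsox in K36M cells (y axis) against the average level over the 8 libraries (log2 CPM, x axis), 1 point for each of the 15789 tested genes, red where called higher and blue where called lower. Black points are named genes: Lefty2, Trim67 and Lefty1 stand high at the top, and Dmrtc1a, Klk7, Pparg and Ifit3 low at the bottom.

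Feedback inhibitors of Nodal were among the genes that rose by the most. Lefty2 (chromosome 1, 182823239 to 182829234, mm9), which encodes a secreted antagonist of Nodal, had 162 and 138 CPM under TGF-beta, against 0.132 and 0.322 CPM under Repsox. Both TGF-beta libraries were far above both Repsox libraries, a difference of 660.0-fold (log2 9.37 ± 0.31, where ± is the standard error implied by the test, adjusted p = 3.45e-16, and log2 10.05 without the second Repsox library). Lefty1 (chromosome 1, 182865153 to 182868531), its neighbour and close relative, had 47.1 and 39.2 CPM under TGF-beta, against 0.527 and 0.885 CPM under Repsox (61.9-fold higher, log2 5.95 ± 0.28, adjusted p = 1.02e-13), again without overlap. The coding sequences of the 2 genes are 91.9% identical over 1107 aligned bases, and 26.6% of the 50-base windows of Lefty1 also occur in Lefty2, so part of their reads cannot be assigned with certainty.

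Nodal itself, the ligand, stood at 59.2 and 61.8 CPM under TGF-beta, against 20.9 and 15.4 CPM under Repsox (3.31-fold higher, log2 1.73 ± 0.13, adjusted p = 2.57e-10). Both TGF-beta libraries were above both Repsox libraries for its co-receptor gene Tdgf1 (Cripto) as well, at 148 and 155 CPM under TGF-beta, against 89.0 and 82.5 CPM under Repsox (1.77-fold higher), and for Foxh1, the factor that carries Smad2 and Smad3 to Nodal targets, at 43.8 and 35.8 CPM under TGF-beta, against 27.3 and 28.6 CPM under Repsox (1.43-fold higher; adjusted p = 0.00174, and 0.0742 without the first TGF-beta library). The activin antagonist gene Fst was 4.21-fold higher. Lower under TGF-beta were Inhbb, an activin subunit gene (3.99-fold), and Acvr2b, an activin receptor gene (1.61-fold). Of the 15 tested members of the Nodal and activin list, 8 were called higher and 4 lower (2 lower without the first Repsox library), with a median log2 fold change of 0.82.

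In WT cells these genes differed among themselves. In WT, 62.4% of all genes were called, 29.0% higher and 33.4% lower, and of the Nodal and activin list 5 were higher and 8 lower (median log2 -1.33). Lefty1 was 2.70-fold higher under TGF-beta in WT as well, at 6.97 and 3.81 CPM under TGF-beta, against 2.02 and 1.89 CPM under Repsox (adjusted p = 2.10e-04; K36M minus WT difference 4.52 ± 0.47). Lefty2 was near 0 in WT cells, at 0.430 and 0.0718 CPM under TGF-beta, against 0.0674 and 1.21 CPM under Repsox, which differed by less than the threshold (adjusted p = 0.189), and Nodal was 36.1-fold lower under TGF-beta in WT (log2 -5.17 ± 0.26). The response of K36M cells exceeded that of WT cells by 10.70 ± 1.15 on the log2 scale for Lefty2 (adjusted p = 6.16e-08; 7.70 to 12.28 with 1 library left out), 6.90 ± 0.29 for Nodal, 6.41 ± 0.19 for Tdgf1 and 5.81 ± 0.28 for Foxh1. This difference between responses was called for 51.0% of all genes, higher for 28.5% and lower for 22.6%, and for 11 and 2 of the 15 members of the list.

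**Figure D2:**
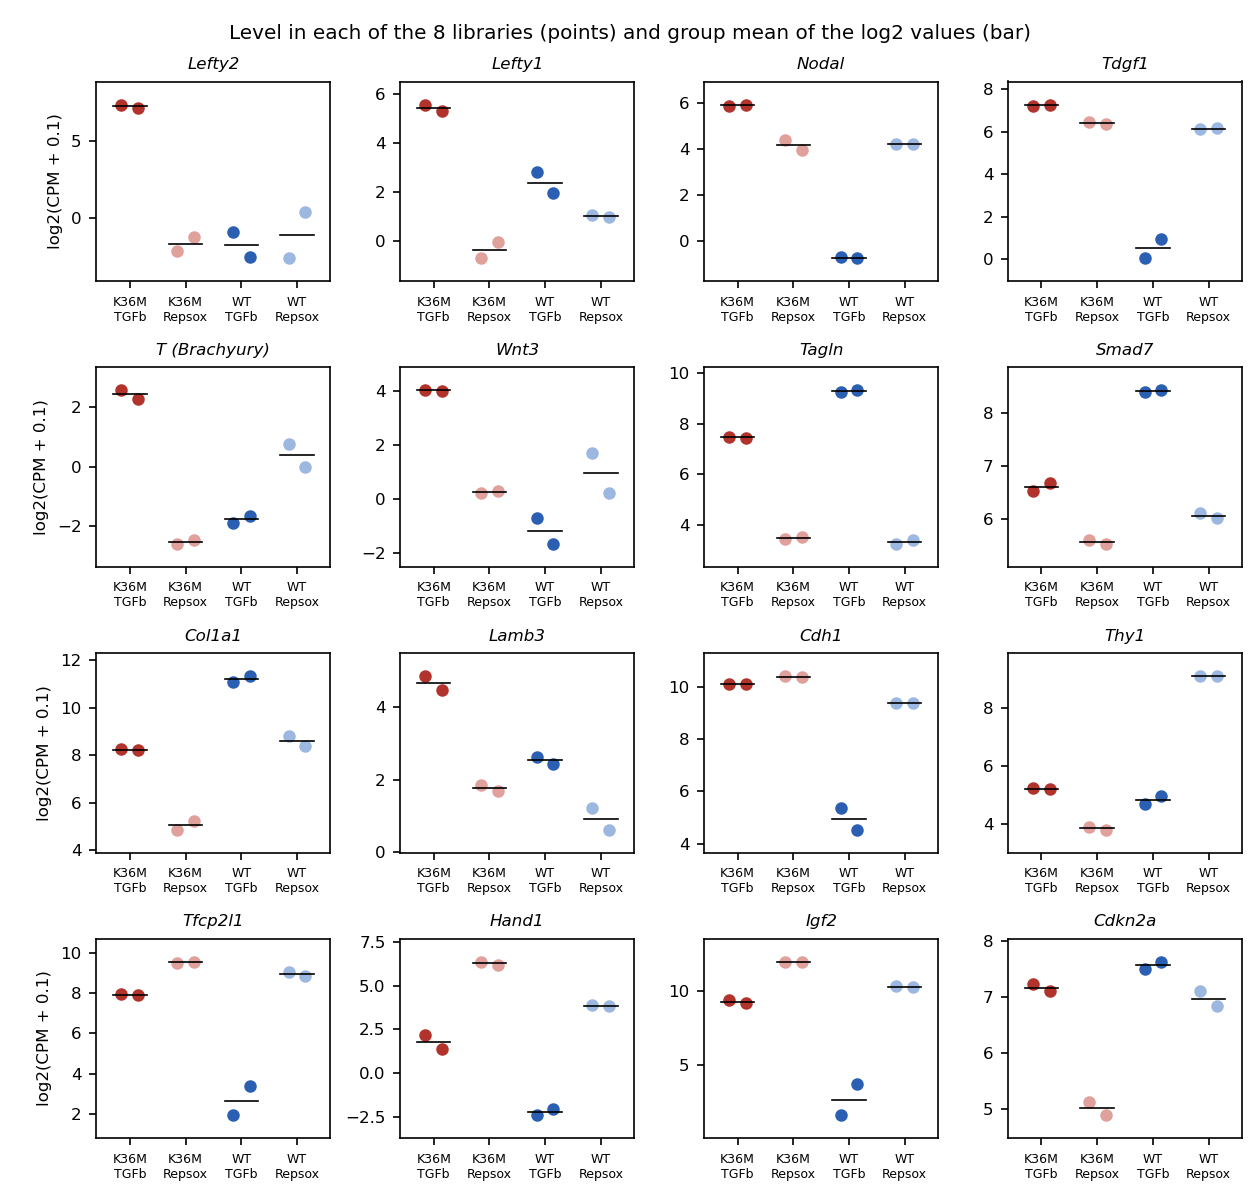
Level of 16 genes in each library, as log2(CPM + 0.1), with K36M cells under TGF-beta and Repsox left of WT cells under TGF-beta and Repsox; points are libraries and bars the means of 2, and each panel has its own scale. In K36M cells Lefty2, Lefty1, Nodal, Tdgf1, T and Wnt3 lie higher under TGF-beta, where the WT libraries under TGF-beta lie low or, for Lefty1, higher by less.

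Genes of the primitive streak, the embryonic structure in which Nodal and Wnt signals induce mesoderm and endoderm, were partly higher. T (Brachyury, chromosome 17), the mesoderm factor, had 5.86 and 4.81 CPM under TGF-beta, against 0.0658 and 0.0804 CPM under Repsox. Its counts, 130 under TGF-beta and 2 under Repsox, gave a ratio of 74.1, whose size is uncertain with so few counts under Repsox. Wnt3, which initiates the streak in the mouse embryo, had 16.1 and 16.0 CPM under TGF-beta, against 1.05 and 1.13 CPM under Repsox, with no overlap (14.6-fold higher, log2 3.87 ± 0.35). Fgf8, a growth factor of the streak, had a ratio of 15.6, which also rests on few counts under Repsox. Eomes, an endoderm and trophoblast factor, did not pass the test, at 7.58 and 7.78 CPM under TGF-beta, against 6.65 and 5.07 CPM under Repsox (adjusted p = 0.196). Of the 7 tested genes of the streak list, 3 were called higher and 2 lower, against 24.7% and 23.6% of all genes. The 2 lower ones were the endoderm factor genes Gata6 and Sox17 (2.06-fold and 3.31-fold), whose calls were lost without the first Repsox library (adjusted p = 0.100 and 0.162) and without the second TGF-beta library (adjusted p = 0.0692 and 0.0650), that of Gata6 also with DESeq2 (adjusted p = 0.0568). The other 7 of the 14 genes on that list, among them Gsc, Mixl1 and Foxa2, had too few counts to be tested.

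Several other Wnt ligand genes rose with Wnt3. Of 21 tested Wnt pathway genes, 12 were higher and 4 lower (median log2 0.53). Wnt3a had 4.30 and 5.77 CPM under TGF-beta, against 0.0658 and 0.322 CPM under Repsox (26.2-fold higher, log2 4.71 ± 0.63). Wnt8a had 46.7 and 47.4 CPM under TGF-beta, against 6.58 and 8.45 CPM under Repsox (6.30-fold higher, log2 2.66 ± 0.18). Neither overlapped. Without the first or the second Repsox library the log2 value of Wnt3a was 3.92 or 6.06. Wnt7a was 9.25-fold and Wnt5a 2.75-fold higher, and the Wnt target and Brachyury partner gene Sp5 11.9-fold higher, at 6.72 and 6.47 CPM under TGF-beta, against 0.395 and 0.724 CPM under Repsox. Axin2, a widely used readout of the canonical pathway, did not pass the test (31.8 and 33.9 CPM under TGF-beta, against 28.9 and 30.7 CPM under Repsox, adjusted p = 0.462). Wnt7b (4.53-fold) and Notum, a secreted Wnt inhibitor (2.65-fold), were lower. In WT cells 4 members were higher and 14 lower, and the difference between responses was positive for 15 and negative for 1.

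Most TGF-beta target genes rose in K36M cells. Of 24, 17 were higher and 3 lower (median log2 0.99). Tagln (chromosome 9, 45737711 to 45744141), which encodes the actin-binding protein transgelin, had 180.1 and 173 CPM under TGF-beta, against 10.7 and 11.2 CPM under Repsox (16.2-fold higher, log2 4.01 ± 0.09, adjusted p = 1.26e-18), with the libraries of each treatment close together and far apart from the other. Pmepa1, a feedback inhibitor that sequesters Smads, had 70.5 and 73.5 CPM under TGF-beta, against 7.97 and 8.36 CPM under Repsox (8.82-fold higher). Ctgf, a matricellular growth factor, had 156 and 153 CPM under TGF-beta, against 22.3 and 29.3 CPM under Repsox (6.03-fold higher). Cyr61, a relative of Ctgf, was 4.58-fold, Nox4, an oxidase gene, 2.11-fold, Cdkn2b, the cell cycle inhibitor p15, 4.14-fold, and Skil, a Smad corepressor, 3.13-fold higher. The inhibitory Smad gene Smad7 stood at 91.9 and 102 CPM under TGF-beta, against 49.0 and 46.5 CPM under Repsox (2.03-fold higher, log2 1.02 ± 0.09), without overlap. The 3 lower genes of the list went the other way: the integrin gene Itgb3 was 3.62-fold lower, at 19.5 and 21.5 CPM under TGF-beta, against 78.9 and 69.4 CPM under Repsox, Adam19 4.07-fold lower and Itga5 1.35-fold lower.

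For most of the list the response was below that in WT: the difference between responses was negative for 15 of the 24 and positive for 5 (median log2 -1.34). Only for genes that rose in K36M does a negative difference mean a smaller rise. Ctgf was 48.2-fold higher under TGF-beta in WT, at 2052 and 2099 CPM under TGF-beta, against 40.7 and 45.5 CPM under Repsox, and the K36M minus WT difference was -3.00 ± 0.13 on the log2 scale (adjusted p = 1.77e-14). It was -1.97 ± 0.14 for Tagln, -1.69 ± 0.18 for Pmepa1 and -1.31 ± 0.12 for Smad7. For Cyr61, with log2 fold changes of 2.19 in K36M and 2.08 in WT, the difference did not pass the test (0.11 ± 0.09, adjusted p = 0.338). For Cdkn2b it was positive (1.18 ± 0.13).

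The genes of the pathway itself were mostly higher. Of 16 ligands, receptors and latency proteins, 13 were higher and 1, the betaglycan gene Tgfbr3, lower (median log2 0.88). The call of Tgfbr3 (1.58-fold, adjusted p = 0.00255) was lost without the second Repsox library (adjusted p = 0.0515) or the first TGF-beta library (adjusted p = 0.0712). The ligand genes Tgfb1, Tgfb2 and Tgfb3 were 2.05-fold, 1.99-fold and 1.71-fold higher, with Tgfb1 at 36.5 and 34.3 CPM under TGF-beta, against 17.4 and 17.1 CPM under Repsox. Thbs1, a matrix protein that activates latent TGF-beta, had 433 and 484 CPM under TGF-beta, against 61.7 and 82.1 CPM under Repsox (6.40-fold higher), and Eng, a co-receptor, was 2.74-fold higher. Tgfbr1, which encodes the target of Repsox, did not pass the test, at 23.2 and 21.1 CPM under TGF-beta, against 24.6 and 28.2 CPM under Repsox (adjusted p = 0.0799, and 0.0461 or 0.0451 when the first or the second WT Repsox library was left out of the fit). Among 16 Smads and feedback inhibitors, 6 were higher and 1, Smad2, was lower (1.30-fold). Smad3 and Smad4 did not pass the test (adjusted p = 0.237 and 0.313). Of 16 BMP pathway and ID genes, 3 were higher and 6 lower (median log2 -0.37), against 24.7% and 23.6% of all genes. Among those lower were Id2 (1.72-fold) and Id3 (1.40-fold), which encode inhibitors of differentiation factors and are BMP targets, the homeobox gene Msx2 (2.62-fold) and the BMP receptor gene Bmpr1a (1.79-fold), at 138 and 144 CPM under TGF-beta, against 249 and 255 CPM under Repsox.

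Matrix and contractile genes followed the target genes. Of 17 collagen chain genes, 11 were higher and 3 lower (median log2 1.81). Col1a1 (chromosome 11, 94797538 to 94814356), which encodes the main chain of type I collagen, had 306 and 299 CPM under TGF-beta, against 29.1 and 37.7 CPM under Repsox (9.10-fold higher, log2 3.19 ± 0.12, adjusted p = 2.38e-15). Its 2 TGF-beta libraries were nearly equal and far above both Repsox libraries. Col11a1 was 15.2-fold, Col5a2 10.4-fold, Col7a1, the anchoring fibril collagen of epithelial basement membranes, 9.24-fold and Col1a2 6.33-fold higher. The chains of type IV collagen in basement membranes, Col4a1 and Col4a2, were 1.45-fold and 1.39-fold lower. Col6a3 was the third gene called lower, with an adjusted p of 0.0458 that was 0.0741 to 0.165 when any 1 of the K36M libraries was left out, and 0.0516 to 0.199 with DESeq2, limma voom, a stricter filter or other scaling.

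Of 23 matrix glycoproteins and crosslinking enzymes, 17 were higher and 1, P4ha2, was lower (1.94-fold; median log2 1.22). Lox, the lysyl oxidase gene, had 44.5 and 58.5 CPM under TGF-beta, against 0.790 and 5.63 CPM under Repsox (17.1-fold higher, log2 4.09 ± 0.27). The TGF-beta libraries lay above both Repsox libraries, which differed widely from each other, and the log2 value was 3.18 without the first and 6.00 without the second Repsox library. Fbln2, which encodes the elastic fibre protein fibulin, was 10.1-fold, the oxidase gene Loxl2 4.36-fold, and Fbn1, the gene of fibrillin, 3.05-fold higher, at 43.1 and 52.4 CPM under TGF-beta, against 14.2 and 17.2 CPM under Repsox. Sparc, a collagen-binding gene, did not pass the test (adjusted p = 0.226). Fn1, the fibronectin gene, was 1.17-fold higher, at 2004 and 2149.8 CPM under TGF-beta, against 1813 and 1748 CPM under Repsox, with an adjusted p of 0.00389 that was 0.0579 without the second Repsox library and 0.0513 without the second TGF-beta library. Of 20 matrix proteases and their inhibitors, 13 were higher and 3 lower. Mmp9, a gelatinase gene, had 47.6 and 40.8 CPM under TGF-beta, against 3.82 and 1.93 CPM under Repsox (15.0-fold higher, log2 3.90 ± 0.23, and 4.51 without the first Repsox library), where the WT libraries held 5.08 and 3.23 CPM under TGF-beta, against 4.38 and 3.55 CPM under Repsox, and the difference between responses was 3.86 ± 0.37 (adjusted p = 8.90e-09).

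Integrin and laminin genes were higher for 14 and lower for 5 of 20 (median log2 0.70). The laminin chain gene Lamb3 had 29.1 and 22.2 CPM under TGF-beta, against 3.49 and 3.14 CPM under Repsox (7.70-fold higher, log2 2.95 ± 0.22), and Lama3, another chain of epithelial laminin, and the laminin receptor gene Itgb4 were 3.46-fold and 2.57-fold higher. No library of one treatment overlapped the other for these 3 genes. Lama5 was 1.76-fold higher in K36M, at 1863 and 1727 CPM under TGF-beta, against 1034 and 1009 CPM under Repsox, and 24.2-fold lower under TGF-beta in WT (difference 5.41 ± 0.23); DESeq2 did not call it in K36M (adjusted p = 0.0809). Of 14 smooth muscle contractile genes, 11 were higher and 2 lower (median log2 1.21; 1 lower without the first Repsox or the first TGF-beta library). Acta2, the smooth muscle actin gene, had 81.6 and 82.8 CPM under TGF-beta, against 12.8 and 11.8 CPM under Repsox (6.66-fold higher), Actg2 was 10.5-fold, Cnn1, the calponin gene, 8.56-fold and Myl9 7.67-fold higher, and Mylk, the kinase of myosin light chains, 3.06-fold lower.

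**Figure D3:**
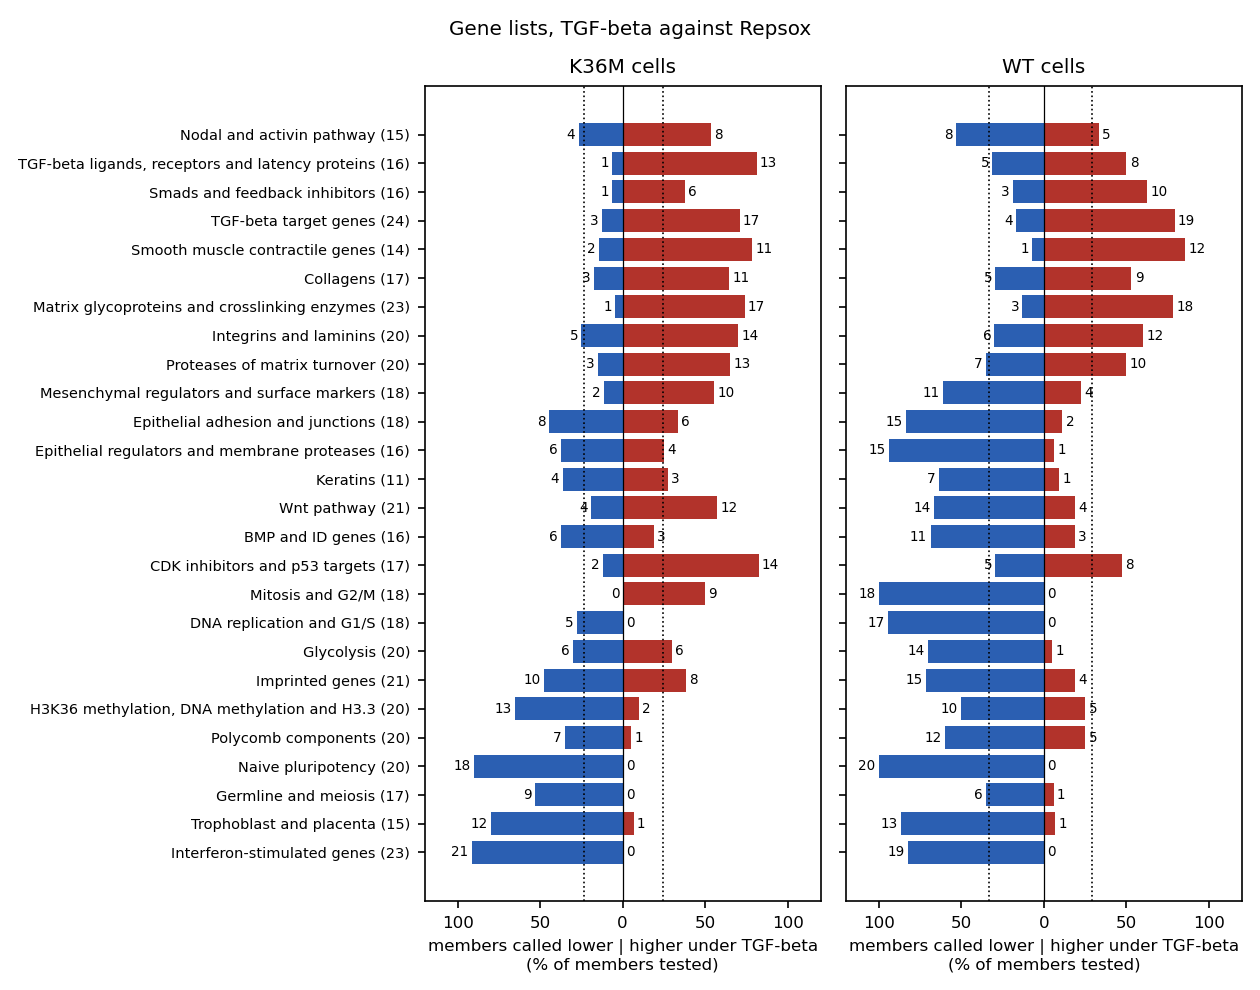
Share of the tested members of 26 gene lists called higher (right of 0, red) and lower (left of 0, blue) under TGF-beta, in K36M cells (left panel) and WT cells (right panel); the digits are the counts, the number in brackets is the members tested, and dotted lines mark the share of all genes. Collagens lean to the right in both panels, and mitosis genes lie on the left in WT and on the right in K36M, and epithelial genes lie mostly on the left in WT and on both sides in K36M.

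Mesenchymal regulators and surface markers were higher in 10 and lower in 2 of 18 (median log2 0.74). The list went the other way in WT, with 4 higher and 11 lower (median log2 -0.97). The difference between responses was positive for 11 and negative for 1. Thy1, higher in K36M, was 19.3-fold lower under TGF-beta in WT (difference 5.65 ± 0.14). Cd44, a hyaluronan receptor gene, had 153 and 188 CPM under TGF-beta, against 27.0 and 29.8 CPM under Repsox (6.01-fold higher, log2 2.59 ± 0.10). Vim, the intermediate filament gene of mesenchyme, had 302 and 331 CPM under TGF-beta, against 93.0 and 110.3 CPM under Repsox (3.12-fold higher). Cdh2, the cadherin gained in the mesenchymal transition, was 3.66-fold higher, at 6.49 and 7.95 CPM under TGF-beta, against 1.71 and 2.25 CPM under Repsox, and Thy1 2.60-fold higher (log2 1.38 ± 0.11). Of the factors that drive the transition, Snai1 stood at 12.1 and 11.4 CPM under TGF-beta, against 9.68 and 12.0 CPM under Repsox and did not pass the test (adjusted p = 0.570), and Zeb2 was 1.85-fold higher, at 5.94 and 6.20 CPM under TGF-beta, against 2.44 and 4.26 CPM under Repsox, a call that was lost without the first Repsox library (adjusted p = 0.0985). Pdgfra, a receptor gene of fibroblasts, and Prrx1, a mesenchymal homeobox gene, were 4.67-fold and 1.79-fold lower, the call of Prrx1 being lost without the second Repsox library (adjusted p = 0.0638).

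Epithelial genes were split in K36M, where 24.7% of all genes were called higher and 23.6% lower. The share of epithelial regulators called higher was near that of all genes. Of 18 adhesion and junction genes, 6 were higher, 8 lower and 4 not called (median log2 -0.01). Cdh1 (chromosome 8, 109127251 to 109194146), the epithelial cadherin gene, had 1109.6 and 1127 CPM under TGF-beta, against 1383 and 1333 CPM under Repsox. The TGF-beta libraries were slightly below both Repsox libraries (1.21-fold lower, log2 -0.28 ± 0.11, adjusted p = 0.0428). The call was lost when any 1 of the K36M libraries was left out (adjusted p = 0.0717 to 0.159), with DESeq2 (adjusted p = 0.503) and with other scaling (adjusted p = 0.0607 and 0.0752). Epcam, given above, was 1.61-fold higher (log2 0.69 ± 0.13; adjusted p = 0.11 with DESeq2), the claudin gene Cldn6 1.95-fold higher and Dsp, the desmoplakin gene, 1.34-fold higher, whereas Tjp3, a tight junction scaffold, was 2.33-fold and Cdh3, the placental cadherin, 1.93-fold lower. Of 16 epithelial regulators and membrane proteases, 4 were higher and 6 lower (median log2 -0.16; 2 higher without the second Repsox or the first TGF-beta library). Grhl3, an epidermal factor, was 2.40-fold and Ehf, an ETS factor, 20.7-fold higher, and the protease genes Tmprss2 and Prss8 and the ETS factor gene Elf3 were 12.1-fold, 3.61-fold and 2.68-fold lower. The splicing regulator gene Esrp1 did not pass the test (175 and 187 CPM under TGF-beta, against 188 and 195 CPM under Repsox, adjusted p = 0.639).

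Of 11 keratin genes, 3 were higher and 4 lower, shares near those of all genes (24.7% and 23.6%). Krt17, a keratin of basal and stratified epithelia like Krt5, had 47.4 and 50.2 CPM under TGF-beta, against 5.20 and 3.22 CPM under Repsox (11.4-fold higher). Krt5 had 12.5 and 9.52 CPM under TGF-beta, against 1.38 and 0.885 CPM under Repsox (9.51-fold higher), and Krt20 was 11.6-fold higher. The simple epithelial keratins Krt8 and Krt18 were 1.71-fold and 1.95-fold lower, with Krt18 at 754 and 699 CPM under TGF-beta, against 1462 and 1375 CPM under Repsox, and Krt7 was 2.84-fold lower. In WT cells, by contrast, 15 of 18 adhesion genes and 15 of 16 regulators were lower under TGF-beta (median log2 -3.34 and -3.78). Cdh1 was 21.2-fold lower there, at 41.1 and 23.1 CPM under TGF-beta, against 666 and 680.0 CPM under Repsox, and the difference between responses was 4.13 ± 0.17 (adjusted p = 1.64e-14). That difference was positive for 16 and negative for 2 of the adhesion genes, and positive for 14 and negative for 1 of the regulators.

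Naive pluripotency genes, active in mouse embryonic stem cells and the inner cell mass, fell in K36M: 18 of 20 were lower and none higher (median log2 -1.61). Tfcp2l1, a factor of the naive network, had 246 and 240.0 CPM under TGF-beta, against 726 and 751 CPM under Repsox, without overlap (3.04-fold lower, log2 -1.60 ± 0.13, adjusted p = 5.56e-10). Esrrb, an orphan nuclear receptor gene, was 2.69-fold, Klf2 5.58-fold, Zfp42, which encodes Rex1, 6.06-fold and Tbx3, a T-box factor, 4.90-fold lower. The largest decrease of the list was that of Prdm14, a repressor of differentiation genes, at 0.313 and 0.612 CPM under TGF-beta, against 7.44 and 8.45 CPM under Repsox (17.1-fold lower). Nanog, the core factor, did not pass the test, at 103 and 105 CPM under TGF-beta, against 101 and 107 CPM under Repsox (log2 0.01 ± 0.19, adjusted p = 0.987), and neither did Utf1 (log2 -0.21 ± 0.09, adjusted p = 0.0699), which was called lower in 5 of the 17 alternative analyses (without the first or the second WT Repsox library, with limma voom, with a replicate block and with the K36M libraries alone; adjusted p = 0.00825 to 0.0457).

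Under TGF-beta all 20 genes fell in WT (median log2 -5.90), and the difference between responses was positive for 19, that is, the decrease was smaller in K36M, and negative for Tbx3 (-0.62 ± 0.15). Nanog, at 13.9 and 3.23 CPM under TGF-beta, against 129.8 and 114 CPM under Repsox in WT, differed in response by 3.90 ± 0.32 (adjusted p = 9.27e-10); its 2 WT libraries under TGF-beta were far apart. Of 7 tested formative and primed genes, 2 were higher in K36M (1 without the first Repsox or the second TGF-beta library), among them Lin28b (2.29-fold). The 4 lower ones were Dnmt3a, Dnmt3b, Otx2 (log2 -2.59 ± 0.42, -3.45 without the second TGF-beta library) and Foxd3 (log2 -4.12 ± 0.48, -4.97 without it). The reprogramming factor genes, whose endogenous and introduced transcripts a gene count does not separate, moved little: Pou5f1 was 1.50-fold, Myc 1.39-fold and Klf4 1.19-fold higher, and Sox2 1.67-fold lower, at 101 and 112 CPM under TGF-beta, against 182 and 173 CPM under Repsox. The call of Klf4 was lost without the second Repsox or the second TGF-beta library (adjusted p = 0.0721 and 0.162).

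Most trophoblast and placental genes fell as well. Of 15, 12 were lower and 1, Ets2, was higher (1.26-fold; median log2 -2.20). Gata2, a factor of trophoblast and blood cells, had 27.4 and 22.9 CPM under TGF-beta, against 369.7 and 339.7 CPM under Repsox (14.1-fold lower, log2 -3.81 ± 0.11, adjusted p = 1.64e-17). Hand1, a factor of trophoblast giant cells and mesoderm, had 4.45 and 2.53 CPM under TGF-beta, against 83.1 and 74.5 CPM under Repsox (22.2-fold lower, log2 -4.47 ± 0.17). Both TGF-beta libraries were far below both Repsox libraries for each. Plac1, a placental gene of the X chromosome, had 0.703 and 0.175 CPM under TGF-beta, against 47.9 and 46.6 CPM under Repsox (102-fold lower, log2 -6.67 ± 0.28, and -8.0 or -6.05 without the first or the second TGF-beta library), and Sfmbt2, Ascl2, Gcm1, Gata3 and Tfap2c, all trophoblast regulators, were 4.60-fold, 5.77-fold, 3.50-fold, 2.49-fold and 2.68-fold lower. Tfap2a, a factor of trophoblast and surface ectoderm, did not pass the test (adjusted p = 0.313). The summed level of the list was 1763 and 1809 CPM under TGF-beta, against 9843 and 9853 CPM under Repsox, most of it Peg10. The part of a change in cell types in this difference was not tested. Gata2 and Hand1 were also lower in WT, by 5.62-fold and 114-fold. The value for Hand1 rests on 3 counts under TGF-beta, against 406 under Repsox, so its size is uncertain. For Gata2 the decrease in K36M was the larger (difference -1.32 ± 0.15, adjusted p = 1.01e-07).

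Imprinted genes, expressed from 1 parental copy, went in both directions, 8 higher and 10 lower of 21 (median log2 0.12). Those of the Igf2 and H19 domain and its neighbour on chromosome 7 fell: Igf2, a fetal growth factor gene, had 649.6 and 575 CPM under TGF-beta, against 3866 and 3809 CPM under Repsox (6.27-fold lower, log2 -2.65 ± 0.17). The non-coding H19 had 2675 and 2409.6 CPM under TGF-beta, against 11993 and 11231 CPM under Repsox (4.57-fold lower). Cdkn1c, a cell cycle inhibitor, had 56.0 and 53.3 CPM under TGF-beta, against 481 and 442 CPM under Repsox (8.44-fold lower) and Phlda2, a repressor of placental growth, 19.7 and 13.7 CPM under TGF-beta, against 190.3 and 179.8 CPM under Repsox (11.0-fold lower). No library overlapped the other treatment for these 4 genes. Peg10 was 6.02-fold and Peg3 2.65-fold lower. The maternally expressed RNAs of the Dlk1 and Meg3 domain on chromosome 12 rose, Meg3 at 172 and 193 CPM under TGF-beta, against 62.8 and 70.6 CPM under Repsox (2.74-fold), Rian by 2.93-fold and Mirg by 2.51-fold, as did Rtl1, which is paternally expressed and overlapped by an antisense transcript (2.77-fold). Plagl1, a zinc finger factor, had 257 and 254 CPM under TGF-beta, against 48.1 and 45.6 CPM under Repsox (5.44-fold higher). The difference from the WT response was positive for 16 members and negative for 1, Impact.

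Of 17 tested germline and meiosis genes, 9 were lower and none higher (median log2 -0.83). Rhox9, an X-linked homeobox gene of germ cells and placenta, had 4.06 and 1.57 CPM under TGF-beta, against 91.3 and 85.5 CPM under Repsox (30.6-fold lower, log2 -4.94 ± 0.22, and -5.81 without the first TGF-beta library). Dazl, a germ cell RNA-binding gene, had 0.625 and 1.05 CPM under TGF-beta, against 8.69 and 7.16 CPM under Repsox (9.50-fold lower). Sycp3, a component of the meiotic chromosome axis, did not pass the test (adjusted p = 0.531).

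The interferon-stimulated genes formed the list with the lowest median. Of 23, 21 were lower under TGF-beta and none higher (median log2 -3.36, against 0.01 over all tested genes). They are genes that type I interferon induces through a complex with Stat2 and Irf9, which binds the interferon-stimulated response element. The core of that element, TTTC followed after any 2 bases by a second TTTC, on either strand, was searched in the 250 bases before the start of each gene, as annotated by GENCODE vM1 on mm9. Among the 23 windows 10 held a match (43.5%), and 9 of the 21 windows of genes that fell (42.9%), against 2.82% of the 15761 windows of all tested genes. As the list holds known interferon targets, a high share was likely whatever their response. Of all genes called lower by at least 2-fold, 4.31% held a match, and of those called higher by at least 2-fold, 2.36%. A match is a description of the letters and not a measured binding site. The 160 bases nearest to the start are shown for the 5 members with a match that fell by the most, 5′ to 3′ on the strand of the gene, with the matches in capitals; matches that overlap run together.
Ifit3, chr19:34657861-34658020, plus strand: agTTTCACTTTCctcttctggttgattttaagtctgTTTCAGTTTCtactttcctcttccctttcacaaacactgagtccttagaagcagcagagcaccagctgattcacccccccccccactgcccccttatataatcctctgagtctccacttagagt
Rsad2, chr12:27141318-27141477, minus strand: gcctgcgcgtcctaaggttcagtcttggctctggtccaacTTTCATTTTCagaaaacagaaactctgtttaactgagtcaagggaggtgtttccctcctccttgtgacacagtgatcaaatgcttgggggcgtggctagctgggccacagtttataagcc
Ifit1, chr19:34715201-34715360, plus strand: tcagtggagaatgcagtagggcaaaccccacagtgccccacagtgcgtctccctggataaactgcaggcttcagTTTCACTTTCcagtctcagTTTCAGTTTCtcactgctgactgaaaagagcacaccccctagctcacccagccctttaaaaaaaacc
Ddx60, chr8:64406724-64406883, plus strand: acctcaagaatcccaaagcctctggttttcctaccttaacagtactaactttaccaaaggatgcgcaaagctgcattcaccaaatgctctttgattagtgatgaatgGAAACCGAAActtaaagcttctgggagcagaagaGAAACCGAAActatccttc
Isg15, chr4:155574928-155575087, minus strand: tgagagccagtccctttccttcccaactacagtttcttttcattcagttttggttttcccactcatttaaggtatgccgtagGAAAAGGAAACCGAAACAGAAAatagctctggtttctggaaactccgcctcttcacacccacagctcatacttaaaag

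Rsad2, which encodes the antiviral protein viperin, had 2.58 and 3.41 CPM under TGF-beta, against 163 and 165 CPM under Repsox (55.0-fold lower, log2 -5.78 ± 0.14, adjusted p = 6.81e-18). Both TGF-beta libraries were close to each other and far below both Repsox libraries. Ifit3, which has 2 matches in the window shown, had 1 count under TGF-beta in both libraries together and 251 under Repsox, a ratio of 220.3 (exact 95% interval 39.2 to 8735) of Repsox over TGF-beta. The related Ifit1 had 0.313 and 0.0874 CPM under TGF-beta, against 10.6 and 10.1 CPM under Repsox (48.0-fold lower, log2 -5.59 ± 0.49, and -6.74 without the first TGF-beta library). Ddx60, a helicase gene, had 0.938 and 0.699 CPM under TGF-beta, against 17.6 and 16.2 CPM under Repsox (20.3-fold lower), and the ubiquitin-like modifier gene Isg15, whose 3 overlapping matches run together, 1.56 and 1.92 CPM under TGF-beta, against 33.5 and 28.9 CPM under Repsox (17.9-fold lower, log2 -4.16 ± 0.23). In each of these genes the libraries of the treatments lay well apart.

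Members of the same list that carry the interferon signal were among those that fell. Irf7, which amplifies interferon production, had 3.91 and 4.54 CPM under TGF-beta, against 52.0 and 51.3 CPM under Repsox (12.2-fold lower). Stat2 was 2.75-fold and Irf9 2.31-fold lower. The RNA sensor gene Ifih1 had 1.02 and 1.75 CPM under TGF-beta, against 38.9 and 37.6 CPM under Repsox (27.9-fold lower, log2 -4.80 ± 0.22), and its relative Ddx58 was 1.21-fold lower, at 118 and 119 CPM under TGF-beta, against 149.8 and 137 CPM under Repsox, a call that was lost without the first Repsox library or either TGF-beta library (adjusted p = 0.0670 to 0.182). Only Oas3, at 9.22 and 11.8 CPM under TGF-beta, against 10.1 and 9.49 CPM under Repsox, and Ifi44, at 1.09 and 1.57 CPM under TGF-beta, against 2.24 and 1.45 CPM under Repsox, did not pass the test (adjusted p = 0.765 and 0.427), and Oas3 did so with a match in its window. Cxcl10, a chemokine that interferon also induces and that was on another list, went the other way, at 12.0 and 13.3 CPM under TGF-beta, against 1.25 and 1.45 CPM under Repsox (9.34-fold higher, log2 3.22 ± 0.31). The immunoproteasome subunit genes Psmb8 and Psmb10 were 4.06-fold and 3.05-fold higher, while the MHC class I gene H2-D1 was 3.73-fold lower, so that 4 of 11 antigen presentation genes were higher and 5 lower (median log2 0.01).

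In WT cells 19 of the 23 interferon-stimulated genes were lower as well and none higher (median log2 -2.17). The difference between responses was called for 6, negative for 3 and positive for 3. Those negative included Ifih1 (-2.64 ± 0.37, adjusted p = 2.65e-06) and Ifit3, whose fitted value rests on 1 count. The difference was positive for Bst2 (2.35 ± 0.14), Ddx58 (1.34 ± 0.14) and Rsad2 (3.90 ± 1.34, adjusted p = 0.0191). Its size for Rsad2 depends on the prior count, because WT held 0 counts under TGF-beta. Rsad2 was at least 66.1-fold lower in WT and 55.0-fold lower in K36M. For the Nodal and activin list, a search of the same windows for the FOXH1 core TGTNNATT found a match in 2 of 15 (13.3%, against 7.25% of all windows), and one for the Smad palindrome GTCTAGAC in 0 of 15 (0.184% of all windows), which says only that these letters were not in these windows.

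**Figure D4:**
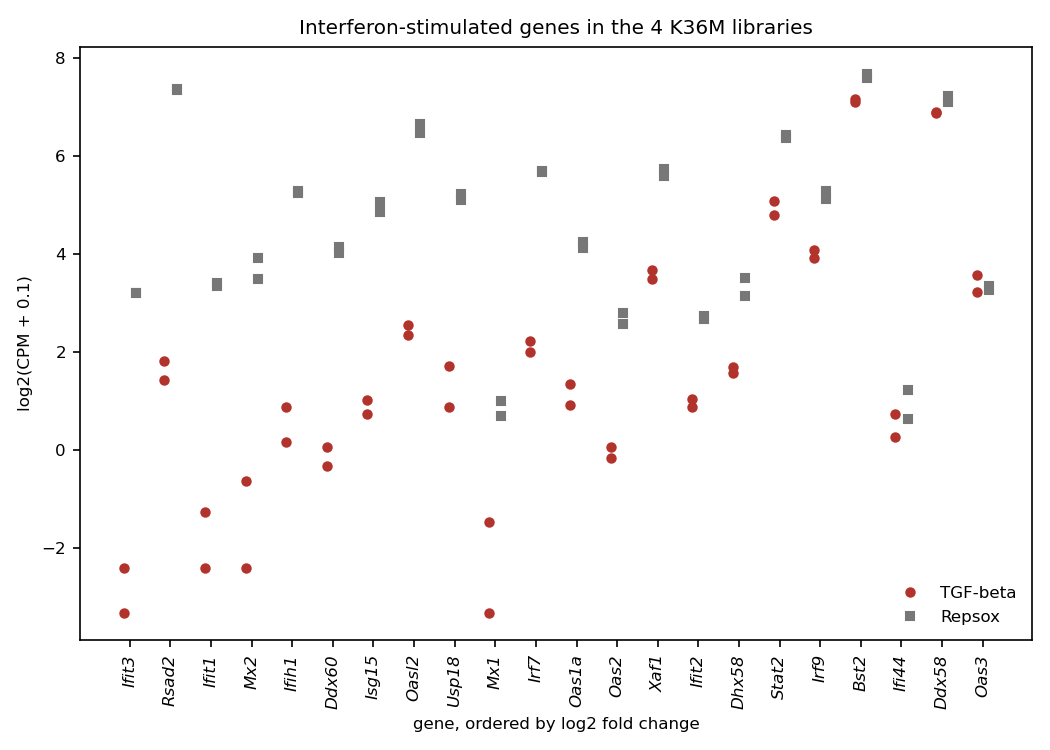
Level of interferon-stimulated genes of the list in the K36M libraries, as log2(CPM + 0.1), with TGF-beta as red circles and Repsox as grey squares, genes ordered by log2 fold change from the lowest. The treatments lie apart for most genes and come together at the right end, at Oas3 and Ifi44.

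Cell division genes differed little between the treatments in K36M, where 24.7% of all genes were called higher and 23.6% lower. Of 18 mitosis genes, 9 were higher and none lower (median log2 0.18; 5 and 4 higher without the first and the second Repsox library). Top2a, the topoisomerase of dividing cells, had 804 and 783 CPM under TGF-beta, against 625 and 623 CPM under Repsox (1.27-fold higher, log2 0.35 ± 0.06), and Cdc20, an activator of the anaphase-promoting complex, was 1.51-fold higher. Of 18 DNA replication and G1/S genes, 5 were lower and none higher (median log2 -0.11; 3 lower without the first Repsox or the second TGF-beta library), with Ccne2, a cyclin E gene, 2.65-fold lower and Tyms, the thymidylate synthase gene, 1.56-fold lower. None of the 6 Mcm genes of the replicative helicase on the list passed the test. In WT all 18 mitosis genes and 17 of 18 replication genes were lower under TGF-beta (median log2 -2.43 and -1.33), and the difference between responses was positive for all 18 mitosis genes and for 16 replication genes, negative for 1, Ccne2.

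Inhibitors of the cell cycle rose beside them. Of 17 CDK inhibitors and p53 targets, 14 were higher and 2 lower (median log2 0.88). Cdkn2a, which encodes p16 and p19ARF, had 149 and 137 CPM under TGF-beta, against 35.1 and 29.6 CPM under Repsox (4.41-fold higher, log2 2.14 ± 0.11), the neighbouring Cdkn2b was 4.14-fold higher and Cdkn1a, the gene of p21, had 372 and 359.6 CPM under TGF-beta, against 146 and 156 CPM under Repsox (2.42-fold higher). None of the libraries overlapped for these 3. The p53 targets Mdm2, Ccng1, Phlda3, Zmat3 and Bax were 1.55-fold, 1.93-fold, 1.99-fold, 1.73-fold and 1.38-fold higher, and the death receptor gene Fas 3.61-fold higher. Cdkn1b and the imprinted Cdkn1c were lower. Compared with WT, the difference between responses was positive for 12 of the 17, with 1.55 ± 0.14 for Cdkn2a, and was not called for Cdkn1a (-0.10 ± 0.09, adjusted p = 0.368). Of 12 AP-1 and immediate early genes, 6 were higher and none lower, Jun by 1.88-fold and Fosl2 by 1.79-fold.

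Genes of H3K36 methylation and DNA methylation were lower more often than higher. Of 20 genes of these pathways and of histone H3.3, 13 were lower, and H3f3a and H3f3b were the 2 that were higher (median log2 -0.36). The dioxygenase genes that oxidise methylcytosine, Tet1, Tet2 and Tet3, were 2.44-fold, 1.94-fold and 2.68-fold lower, with Tet1 at 159 and 167 CPM under TGF-beta, against 396 and 400.5 CPM under Repsox. Dnmt3l, a cofactor of DNA methylation in germ cells, had 28.9 and 24.4 CPM under TGF-beta, against 111 and 115 CPM under Repsox (4.23-fold lower), and the maintenance methyltransferase gene Dnmt1 was 1.70-fold lower. The H3K36 methyltransferase genes Nsd1, Setd2 and Whsc1l1 were 1.28-fold, 1.34-fold and 1.57-fold lower, without overlap between the treatments for Nsd1 (479 and 524 CPM under TGF-beta, against 648 and 631 CPM under Repsox). Of 20 Polycomb genes, Cbx6 was higher and 7 were lower (median log2 -0.10), against 24.7% and 23.6% of all genes. The largest decrease of that list was that of Phf19 (2.39-fold).

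Among all genes with at least 20 counts under each treatment and an average log2 CPM of at least 2, the largest increases were those of Chst15, Dok2, Pde4b, Fermt1, Lox, Tagln, Igfbp7, Apod, Sulf1, Col11a1, Mmp9 and Wnt3. Chst15, a sulfotransferase gene of chondroitin sulfate, had 63.0 and 64.3 CPM under TGF-beta, against 1.32 and 0.804 CPM under Repsox (58.2-fold higher, log2 5.86 ± 0.18, adjusted p = 9.69e-17), whereas in WT it stood at 26.7 and 27.6 CPM under TGF-beta, against 24.7 and 24.8 CPM under Repsox (adjusted p = 0.328; difference 5.73 ± 0.23). Dok2, an adaptor of receptor kinases, had 63.3 and 68.4 CPM under TGF-beta, against 1.98 and 1.61 CPM under Repsox (36.2-fold higher). Pde4b, a cAMP phosphodiesterase gene, had 29.3 and 35.9 CPM under TGF-beta, against 1.05 and 1.05 CPM under Repsox (30.7-fold higher). Fermt1, the gene of the integrin activator kindlin-1, had 27.8 and 24.5 CPM under TGF-beta, against 1.05 and 1.37 CPM under Repsox (21.7-fold higher). A call and no overlap between the treatments were conditions of this choice, so the lack of overlap is not a further result. Igfbp7, Apod, an apolipoprotein gene, and Sulf1, a heparan sulfate sulfatase gene, were 15.6-fold, 15.5-fold and 15.2-fold higher.

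The largest decreases by the same rule were those of Rsad2, Cd82, Nxf7, Arhgef6, Rhox9, Slc22a3, Ifih1, Gjb2, Caskin1, Wscd2, Hand1 and Ldoc1. Cd82, a tetraspanin gene, had 2.58 and 1.31 CPM under TGF-beta, against 67.9 and 66.4 CPM under Repsox (33.8-fold lower, log2 -5.08 ± 0.20, and -5.67 without the first TGF-beta library), and Arhgef6, an X-linked exchange factor of Rac and Cdc42, 6.95 and 7.51 CPM under TGF-beta, against 225 and 223 CPM under Repsox (31.0-fold lower, log2 -4.95 ± 0.11, adjusted p = 5.14e-19). Gjb2, the gap junction gene of connexin 26, had 10.0 and 8.48 CPM under TGF-beta, against 243 and 209.5 CPM under Repsox (24.4-fold lower), and Slc22a3, an imprinted transporter of organic cations, 1.80 and 3.06 CPM under TGF-beta, against 74.1 and 66.7 CPM under Repsox (29.3-fold lower). No overlap was again a condition of the choice. Nxf7, a member of the nuclear export factor family, was 32.4-fold, Caskin1, a scaffold gene, 24.2-fold, Wscd2 24.1-fold and Ldoc1 21.8-fold lower (log2 -4.45 ± 0.30, and -5.07 without the first TGF-beta library).

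A second set of genes was all but read under 1 treatment only, with fewer than 20 summed counts under the other. Higher under TGF-beta, beside Lefty2, were Trim67, a ubiquitin ligase gene of neurons, and Has2, a hyaluronan synthase gene. So were Myoz2, a muscle Z-disc gene, and Gabra2, a GABA receptor subunit gene. Trim67 had 630 counts under TGF-beta and 1 under Repsox (ratio 718), Has2 196 and 1 (ratio 223), and Myoz2 93 and 1 (ratio 106). Each of these ratios rests on 1 count under Repsox, so its size is uncertain. Gabra2 had 80 and 0 counts (at least 30.4-fold higher). Lower under TGF-beta were Dmrtc1a (0 and 713 counts, at least 209-fold lower), the kallikrein gene Klk6 (1 and 552 counts, ratio 484 (exact 95% interval 86.6 to 19169)) and its neighbour Klk7 (4 and 1740 counts; 361-fold lower, log2 -8.50 ± 0.31, and -7.86 or -9.49 without the first or the second TGF-beta library), and Serpinb9e (1 and 393 counts, ratio 345 (exact 95% interval 61.5 to 13657)). Pparg, a nuclear receptor of adipocytes and placenta, had 2 counts under TGF-beta and 661 under Repsox (ratio 290.1 (exact 95% interval 80.0 to 2400.1)). The bounds and intervals cover counting error only, with a floor of 3 counts over the 2 libraries of a treatment where the count was 0. Serpinb9e and Dmrtc1a belong to families of close copies, whose reads may be shared.

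Growth factor and metabolic genes were mixed, beside 24.7% of all genes called higher and 23.6% lower. Of 22 IGF, FGF and PDGF pathway genes, 8 were higher and 6 lower (median log2 0.15), with Fgfr1 2.31-fold and Igfbp3 3.47-fold higher and the receptor gene Kit (log2 -1.72 ± 0.13) and its ligand gene Kitl (3.80-fold) lower. Of 20 glycolysis genes, 6 were higher and 6 lower (median log2 0.04), again near the shares of all genes, Eno1 by 1.48-fold upwards and Hk1 by 1.54-fold downwards; in WT 14 were lower and 1 higher. Striated muscle genes were higher in 6 and lower in 2 of 16, with Acta1, the skeletal actin gene, at 24.1 and 24.9 CPM under TGF-beta, against 5.86 and 5.79 CPM under Repsox (4.20-fold higher) and Myl4, an atrial light chain gene, at 7.81 and 7.08 CPM under TGF-beta, against 83.1 and 73.6 CPM under Repsox (10.5-fold lower). Of 12 chemokines and cytokines, 4 were higher (2 without the second Repsox or the first TGF-beta library) and 3, Vegfa, Lif and Csf1, lower (1.54-fold, 1.66-fold and 1.80-fold).

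Markers of cell types outside the fibroblast to stem cell path differed by list. Over all tested genes 24.7% were called higher and 23.6% lower, and these lists are short. Of 9 macrophage and blood genes, 4 were tested and 2 were lower, Csf1r, the receptor gene of macrophages (6.53-fold), and Gata1, a factor of red cells (11.1-fold, log2 -3.47 ± 0.35, and -4.07 without the second TGF-beta library). The pan-leukocyte gene Ptprc had 3 counts in the 4 K36M libraries together, and the macrophage gene Emr1 and the globin gene Hbb-b1 had 0. The summed level of the tested members was 34.8 and 40.0 CPM under TGF-beta, against 87.5 and 89.3 CPM under Repsox. Endothelial genes were higher in 3, among them the receptor genes Tek (7.45-fold) and Tie1 (2.39-fold), and lower in 3, among them Vwf (3.60-fold) and Pecam1 (4.06-fold), of 11, with Erg at 0 in the K36M libraries. Their summed level was 168 and 176 CPM under TGF-beta, against 147 and 149.7 CPM under Repsox. Of 8 neural genes 4 were higher, among them Nes (4.83-fold) and Ncam1 (3.48-fold), and 1, Tubb3, was lower (3.65-fold), with a median log2 of 1.60. Their summed level was 264 and 278 CPM under TGF-beta, against 99.97 and 106 CPM under Repsox. Keratinocyte genes were higher in 2 and lower in 1 of 6, primitive endoderm genes higher in 2 and lower in 6 of 12 (1 and 3 without the first Repsox library), and adipocyte, cartilage and bone genes higher in 3 and lower in 2 of 8. The summed levels were 36.5 and 41.9 CPM under TGF-beta, against 23.5 and 30.4 CPM under Repsox for the keratinocyte list, 632 and 639.6 CPM under TGF-beta, against 894 and 968 CPM under Repsox for primitive endoderm, and 518 and 546 CPM under TGF-beta, against 551 and 555 CPM under Repsox for adipocyte, cartilage and bone. The keratinocyte genes Ivl and Lor and the bone gene Ibsp had no count in the K36M libraries. The part of such cells in the differences above was not tested.

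Set against WT, K36M cells responded in part along the same line. Of the 7626 genes called in K36M, 3736 (49.0%) were called in the same direction in WT, which is 37.9% of the WT calls, and 1734 (22.7% of the K36M calls, 17.6% of the WT calls) in the opposite direction. Of those 1734, 986 were higher in K36M and lower in WT, and 748 the reverse. In the same-direction group the difference between responses was called for 1304 genes with the smaller change in K36M, for 485 with the larger change in K36M, and not for 1947. The comparisons share no library, and all 8 libraries entered 1 estimate of the spread. Across all genes the difference was called positive for 4493 and negative for 3562, or 5738 and 2482 when libraries were scaled by total counts alone; that scaling placed the median of all differences at 0.31 and that of the WT fold changes at -0.28, in place of 0.09 and -0.07. Its effect on the K36M comparison was small (3989 higher and 3606 lower).

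**Figure D5:**
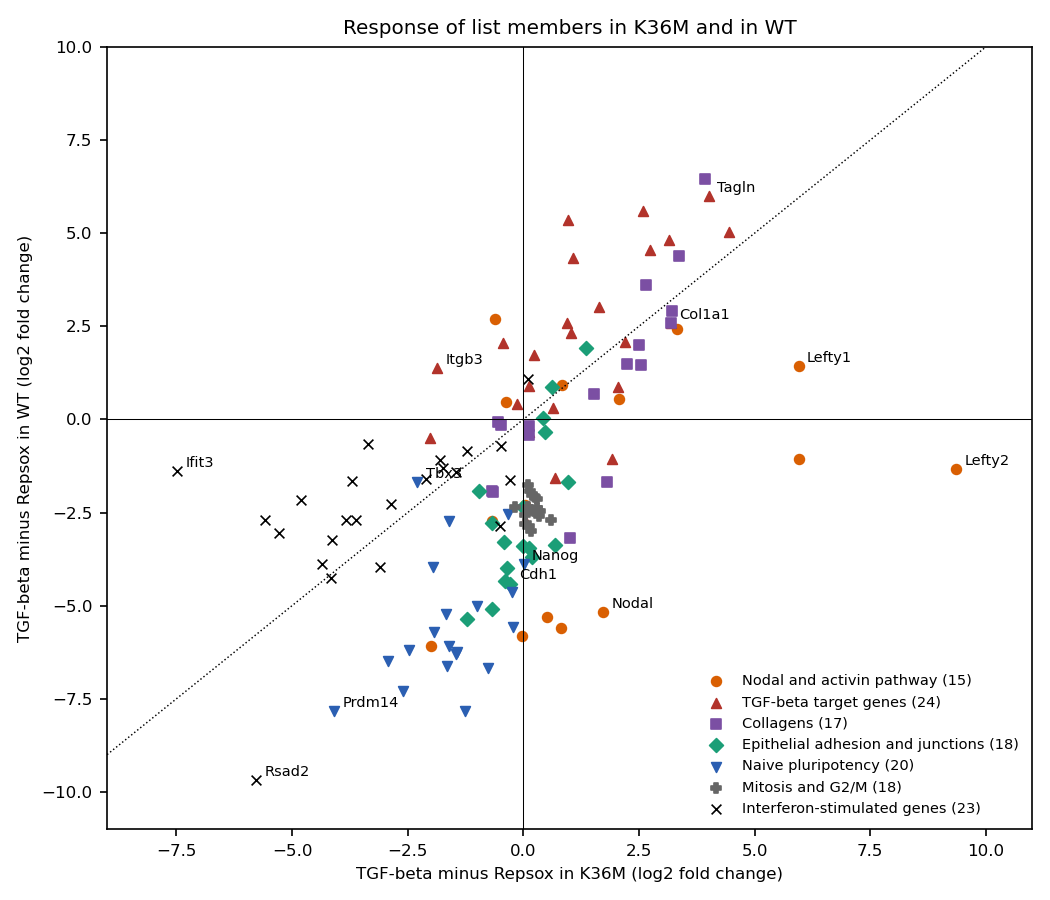
Log2 fold change of TGF-beta over Repsox in WT cells (y axis) against that in K36M cells (x axis) for the tested members of 7 gene lists, with the dotted line at equal change. Interferon-stimulated genes lie mostly at the lower left and collagens mostly at the upper right, mitosis genes lie near 0 in K36M and below 0 in WT, and Lefty2 lies at the far right.

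The genes whose responses differed most, among those called both in K36M and in the difference, with an average log2 CPM of at least 2, were led by Lefty2 and Trim67. Next came Tie1, Hrc, a calcium-binding gene of muscle, Trap1a, a tumour antigen gene, and Wnt6, all of which had 0 counts in WT under TGF-beta, and Tex21, which had 1. Wnt6 stood at 24.5 and 20.2 CPM under TGF-beta, against 13.3 and 13.4 CPM under Repsox in K36M (1.68-fold higher, adjusted p = 0.00247, and 0.0599 without the first TGF-beta library) and at 0 and 0 CPM under TGF-beta, against 2.36 and 1.28 CPM under Repsox in WT (at least 15.8-fold lower). Trap1a was 2.19-fold lower in K36M, at 6.72 and 8.13 CPM under TGF-beta, against 15.8 and 16.7 CPM under Repsox, and at least 57.9-fold lower in WT. At the other end, Megf10, a phagocytic receptor gene, had 1.02 and 1.83 CPM under TGF-beta, against 0.263 and 0.402 CPM under Repsox in K36M and 350.3 and 381 CPM under TGF-beta, against 1.21 and 0.604 CPM under Repsox in WT (difference -6.54 ± 0.84), a smaller rise in K36M. C1qtnf3, a secreted relative of complement C1q, had 4.06 and 2.53 CPM under TGF-beta, against 0.132 and 0.804 CPM under Repsox in K36M (log2 2.91 ± 0.44, and 2.04 or 4.56 without the first or the second Repsox library) and 351 and 342 CPM under TGF-beta, against 0.270 and 0.907 CPM under Repsox in WT (difference -6.31 ± 0.89, and -4.66 without the second K36M Repsox or -7.36 without the second WT Repsox library). Cubn, the gene of the receptor cubilin, was 5.07-fold lower in K36M, at 4.30 and 4.37 CPM under TGF-beta, against 21.6 and 22.4 CPM under Repsox, and 10.5-fold higher in WT, at 29.5 and 26.4 CPM under TGF-beta, against 2.16 and 3.17 CPM under Repsox (difference -5.74 ± 0.26, adjusted p = 6.89e-14).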

How the data were processed

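The input was 1 table of raw whole-number counts per gene, deposited by the authors for 8 rRNA-depleted RNA-seq libraries. The tools STAR 2.5.0, HTSeq 0.11.2 and edgeR and the genome build mm9 are those listed, per the submitters' processing notes, without their roles. The annotation, strand setting and read filters are not given in the sources used here, so overlapping, antisense and near-identical genes are uncertain. Totals of 10928302 to 15594217 counts per library set the counting precision.

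All 8 libraries (4 groups of 2) entered 1 edgeR 4.0.16 quasi-likelihood fit (R 4.3.3) with TMM scaling, filterByExpr and 1 mean per group. The contrasts were TGF-beta minus Repsox in K36M, the same in WT, and the difference between them, with Benjamini-Hochberg adjustment over 15789 tested genes. The value after ± is the standard error implied by the test, the absolute log2 value divided by the square root of its F statistic. With few or no counts in a group it is a poor measure of precision. For Dmrtc1a in K36M, with 0 counts under TGF-beta, it was 0.50, where DESeq2 gave 1.46. CPM are counts scaled to a common total after TMM scaling. On simulated data 85 of 100 genes changed 2-fold and 99 of 100 changed 4-fold were called in K36M, with 8 false calls among 15165 genes. The simulation used a preset spread that depended on level only, and no other gene changed. In the real data 48.3% of genes were called, so the simulation does not give the share of false calls among them.

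The 40 gene lists (629 genes, 578 tested) and the comparison were chosen with earlier results of these data known. Beside list members, genes were named by rule: in K36M the 12 largest increases and decreases among called, non-overlapping genes with at least 20 counts under each treatment and an average log2 CPM of at least 2, the 6 largest each way with fewer than 20 counts under 1 treatment, and the 8 largest differences from WT each way among genes called in both. The list members described were chosen after their values were seen, and some genes are not reported here. Coordinates and windows came from GENCODE vM1 and the mm9 genome. Alternatives were DESeq2 1.42.0, limma 3.58.1 (voom), other scaling, filters and call rules, a fit of the K36M libraries alone, a replicate block, and each library left out.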

Additional observations from a re-analysis of the deposited data

Results flagged for a closer look

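The response to TGF-beta over Repsox was tested directly for a difference between K36M and WT cells, as a contrast between the responses of the genotypes in edgeR's quasi-likelihood test over all 8 libraries. It was higher in K36M for 4493 genes and lower for 3562. Among genes also called in K36M, the largest positive differences on the log2 scale (K36M minus WT) were 10.70 for Lefty2, 9.53 for Trim67, 9.17 for Tie1, 8.83 for Hrc, 8.36 for Trap1a, 8.36 for Wnt6 and 7.74 for Tex21. The largest negative ones were -6.54 for Megf10, -6.34 for Fbxo40, -6.31 for C1qtnf3, -6.29 for Dmrtc1a, -5.92 for Hcn4, -5.90 for Fam176a, -5.83 for Osbp2 and -5.74 for Cubn. With 1 library left out in turn, the difference ranged from 7.70 (without the second WT Repsox library) to 12.28 (without the first WT TGF-beta library) for Lefty2, from 8.18 (without the second WT Repsox library) to 11.81 (without the second K36M Repsox library) for Trim67, from 7.80 (without the second WT Repsox library) to 9.88 (without the first) for Tie1, and from 6.99 (without the first WT TGF-beta library) to 10.08 (without the second) for Tex21. That of C1qtnf3 ranged from -7.36 without the second WT Repsox library to -4.66 without the second K36M Repsox library, and that of Megf10 was -7.14 without the first WT Repsox library. That of Fbxo40 ranged from -10.32 without the first WT Repsox library to -4.75 without the second K36M Repsox library, where its call was lost (adjusted p = 0.127), so the order of these genes depends on single libraries. The K36M fold change of Fbxo40 was not called without the first Repsox library (adjusted p = 0.0779) or the first TGF-beta library (adjusted p = 0.106), and that of Osbp2 not without the first Repsox library (adjusted p = 0.556) or the second TGF-beta library (adjusted p = 0.443). The K36M call of Osbp2 was also lost with DESeq2 (adjusted p = 0.129), limma voom (adjusted p = 0.106) and the K36M libraries alone (adjusted p = 0.0827). Its TGF-beta and Repsox libraries overlapped in K36M. Several of the differences above rest on groups with few or no counts, where the fitted size depends on the prior count.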

How the results depend on the processing

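The counts of genes called higher and lower stayed within 1.5 times under 16 of 17 alternatives. Requiring at least 2-fold gave 1696 and 1302 in K36M, 1940 and 2887 in WT, and 2781 and 1450 for the difference. With each library left out in turn they ranged from 3051 to 4224 higher and 2929 to 4099 lower in K36M, from 3932 to 4588 and 4584 to 5294 in WT, and from 4015 to 4606 and 3115 to 3745 for the difference. DESeq2 gave 3463 and 3050 in K36M. Of 4068 values for 240 named genes, 3950 kept their direction and side of the threshold, 106 lost the call, 8 gained one and 4 turned, none of which had been called: the log2 fold change of Nanog was -0.042 without the first K36M Repsox and -0.0075 without the second K36M TGF-beta library, that of Oas3 -0.087 without the second K36M TGF-beta library and that of Snai1 -0.027 without the first K36M Repsox library. Leaving out each library in turn, they ranged up to 0.045, 0.27 and 0.28. The cause was not tested. Replicate numbers did not pair the libraries (correlations of the deviations of same-numbered libraries from -0.020 to 0.032), and a replicate block gave 3905 and 3764 in K36M. Groups at 0 counts give bounds only.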
